A study of Arabidopsis thaliana with 15 samples.

Results

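The 10 genes described here encode the E2F, DP and RBR1 proteins of Arabidopsis thaliana and the related regulator TSO1. They were chosen by gene identifier: the typical E2F factors E2FA (AT2G36010), E2FB (AT5G22220) and E2FC (AT1G47870), the dimerisation partners DPA (AT5G02470) and DPB (AT5G03415), the atypical factors DEL1 (AT3G48160), DEL2 (AT5G14960) and DEL3 (AT3G01330), RBR1 (AT3G12280) and TSO1 (AT3G22780). They are 10 of the 33326 genes in the deposited table, and all 10 were among the 21737 genes tested. Transcripts were measured by RNA-seq in inflorescence meristems, the shoot tips that produce flowers, in 15 libraries that fell into 5 groups of 3. The groups were myb3r1, myb3r4, the double mutant myb3r1myb3r4, the line pMYB3R4::GFP-MYB3R4mNES (the mNES line below) and Col-0, the wild type. MYB3R1 and MYB3R4 are MYB transcription factors known to act on genes of mitosis and cytokinesis, MYB3R4 as an activator. The mNES line expresses GFP-tagged MYB3R4 from the MYB3R4 promoter. The labels do not explain mNES, do not name the mutant alleles and do not say which background carries the transgene. RNA for a library came from 36 meristems of plants with stems of about 1 cm, grown in days of 16 h light (170 µmol m-2 s-1, 21 °C) and nights of 8 h (17 °C). Whether each replicate had its own plants is not stated, so p-values measure only the spread between these samples, which may be technical.

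E2F proteins bind DNA as dimers with a DP protein and switch on genes that cells need to enter S phase and copy their DNA. In Arabidopsis, E2FA and E2FB are known mainly as activators and E2FC as a repressor, while the atypical DEL proteins bind E2F sites without a DP partner and repress. RBR1, the plant counterpart of the retinoblastoma protein, binds E2Fs and holds their targets in check until D-type cyclins with CDKA;1 phosphorylate it. TSO1 is a CXC-domain protein related to animal LIN54 and is needed for ordered cell division in floral meristems. CXC, ALY, E2F, RBR1 and MYB3R proteins are known to meet in DREAM-type complexes, which keep cell-cycle genes off outside their phase.

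Values are TPM, transcript levels corrected for gene length and scaled to a total of 1000000 per library. TPM keeps no read totals, so depth is unknown. Between 20370 and 20965 genes reached 1 TPM in a library, and replicates of a group correlated at r = 0.985 to 0.988 across the genes tested. The transcripts of the mutated genes did not fall with the labels. MYB3R1 lay at 17.2 to 18.1 TPM in myb3r1 and 14.02 to 15.2 TPM in the double mutant, against 13.1 to 13.5 TPM in Col-0. MYB3R4 lay at 12.7 to 13.4 TPM in myb3r4, 16.8 to 17.4 TPM in the double mutant and 58.9 to 63.5 TPM in the mNES line, whose transgene reads it includes, against 10.4 to 12.8 TPM in Col-0. A whole-gene TPM cannot check a label when the allele is not given, so group names below stand for the libraries so labelled. Of 8 genes listed as inflorescence meristem markers, 7 were tested and CLV3 averaged at most 0.136 TPM in every group.

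Marker genes of other cell types moved with the groups. The 4 pollen markers summed to 189 to 233 TPM in myb3r1, 163 to 313 TPM in myb3r4, 32.6 to 79.3 TPM in the double mutant and 457 to 611 TPM in the mNES line, against 357 to 445 TPM in Col-0. The 5 tapetum and anther markers summed to 73.2 to 89.8 TPM in myb3r1, 64.9 to 82.5 TPM in myb3r4, 115 to 124 TPM in the double mutant and 44.5 to 60.0 TPM in the mNES line, against 73.2 to 82.0 TPM in Col-0. The 4 meiocyte markers summed to 22.2 to 23.6 TPM in myb3r1, 23.7 to 27.7 TPM in myb3r4, 36.0 to 36.5 TPM in the double mutant and 20.9 to 23.9 TPM in the mNES line, against 25.0 to 26.0 TPM in Col-0. The 4 green tissue markers summed to 8291 to 8534 TPM in myb3r1, 8056 to 8211 TPM in myb3r4, 6996 to 7594 TPM in the double mutant and 8353 to 8374 TPM in the mNES line, against 8729 to 9386 TPM in Col-0. The 3 xylem markers summed to 28.8 to 36.2 TPM in myb3r1, 28.6 to 37.0 TPM in myb3r4, 15.8 to 24.0 TPM in the double mutant and 30.5 to 33.5 TPM in the mNES line, against 32.5 to 40.0 TPM in Col-0. The meristem markers summed to 330.1 to 340.2 TPM in myb3r1, 349.6 to 356 TPM in myb3r4, 335 to 347 TPM in the double mutant and 269.9 to 303 TPM in the mNES line, against 315 to 327 TPM in Col-0. AP1 made the largest part of this sum, at 158 TPM on average in Col-0. AP1 and LFY are known as genes of floral meristems and ANT of organ primordia. The sum therefore does not follow the inflorescence meristem alone. In the double mutant LFY (limma, log2 fold change against Col-0 1.19) and ANT (0.53) rose. WUS (-0.62) fell there and 4 did not pass. In the mNES line LFY (-0.65), AP1 (-0.31) and ANT (-0.26) fell, and the other 4 tested, STM, WUS, CLV1 and BP, did not pass. Only STM (0.29) passed in myb3r4, and none in myb3r1. In the double mutant against Col-0, 4 of 4 pollen, 4 of 4 green tissue and 3 of 3 xylem markers fell, while 3 of 5 tapetum and 3 of 4 meiocyte markers rose. Of the 4 green tissue markers, RBCS1A, which makes up most of that sum (6825 TPM on average in Col-0), did not pass in myb3r1, myb3r4 or the mNES line, and the other 3 fell in each. LHCB2.1 was at -1.004 in myb3r1, -1.18 in myb3r4 and -0.74 in the mNES line (limma, log2 fold change against Col-0), LHCB3 at -0.65, -0.85 and -0.59, and LHCA1 at -0.66, -0.77 and -0.44. No marker was at 0 in all libraries. The part of these shifts in the results below was not tested, and in bulk tissue fewer cells of a type and less RNA per cell cannot be told apart.

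E2F factors are known to regulate genes of their own pathway, so the DNA just upstream of 9 of the 10 genes was read from the TAIR10.1 genome. The E2F site was searched as TTTNNCGN, in which each N stood for C or G only, and the core of the MSA element, the M-phase element bound by MYB3R proteins, as AACGG, both on either strand. In the 250 bases before the annotated gene start, 2 of the 9 genes (DPA and RBR1) held an E2F site, against 768 of 27443 protein-coding genes (2.8%). The MSA core was found in 3 of the 9 (E2FA, DPA and RBR1), against 5645 of 27443 genes (20.6%). The stretches with an E2F site are printed here because they hold the letters that E2F proteins are known to bind, with 2 upstream stretches without a match beside them: those of DEL3, the member with the highest fold change in the double mutant, and of DPB. Each is on the strand of its gene, 5′ to 3′, ending at the base before the gene start, with matches to either motif in capitals.
DPA, chr5:544956-545205, minus strand: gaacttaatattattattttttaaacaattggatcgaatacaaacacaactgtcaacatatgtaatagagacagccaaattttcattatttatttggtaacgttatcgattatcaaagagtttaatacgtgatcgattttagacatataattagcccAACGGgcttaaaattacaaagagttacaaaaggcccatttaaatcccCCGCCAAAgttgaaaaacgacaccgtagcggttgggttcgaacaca
RBR1, chr3:3919360-3919462, minus strand: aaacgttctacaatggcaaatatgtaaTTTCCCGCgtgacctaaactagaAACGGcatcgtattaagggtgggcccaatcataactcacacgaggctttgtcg
DEL3, chr3:126877-127126, minus strand: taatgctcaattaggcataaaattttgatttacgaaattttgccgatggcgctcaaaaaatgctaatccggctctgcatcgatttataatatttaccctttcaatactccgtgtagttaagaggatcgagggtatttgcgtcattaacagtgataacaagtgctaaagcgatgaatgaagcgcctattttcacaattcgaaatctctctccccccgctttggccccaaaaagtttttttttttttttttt
DPB, chr5:842039-842288, plus strand: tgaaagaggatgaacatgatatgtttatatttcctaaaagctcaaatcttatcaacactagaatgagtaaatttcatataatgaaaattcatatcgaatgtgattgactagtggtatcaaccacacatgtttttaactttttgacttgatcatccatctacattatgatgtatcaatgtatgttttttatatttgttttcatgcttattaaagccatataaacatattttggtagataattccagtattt
The stretch for RBR1 is 103 bases because the other 147 bases of its window lie in the neighbouring gene AT3G12290. In DPA the E2F site read TTTGGCGG on the opposite strand, with its far edge 46 bases upstream of the gene start. In RBR1 it read TTTCCCGC on the gene's own strand, with its far edge 76 bases upstream. Over 500 bases the E2F site was in the same 2 genes, against 4.94% of all genes, and the MSA core was in 5 of the 9, adding E2FB and E2FC, against 34% of all genes. A match is a run of letters and shows no binding, and its absence says only that these letters are not in the window.

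**Figure D1:**
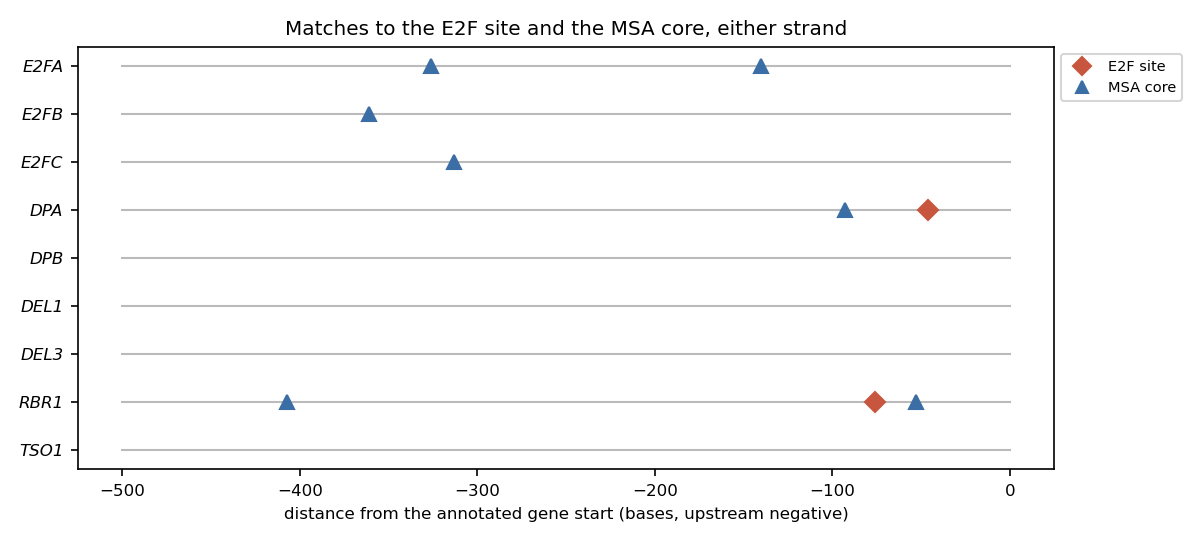
Positions of E2F site and MSA core matches in the 500 bases upstream of each of the 9 genes searched, plotted as distance from the gene start in bases. The far edges of the E2F site matches of DPA and RBR1 lie 46 and 76 bases from the start, and the other 7 genes shown have none in this window.

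All 10 genes reached at least 1 TPM in all 15 libraries, at moderate levels. In Col-0 the means ran, from the top, TSO1 at 35.8 TPM, RBR1 at 27.8, E2FC at 16.8, DPB at 16.6, DPA at 15.2, DEL2 at 10.6, E2FA at 8.81, DEL3 at 8.30, E2FB at 7.06 and DEL1 at 6.84 TPM. Library values overlapped between the neighbours E2FC and DPB, DPB and DPA, and E2FB and DEL1 in this order, and were separate between the other neighbours. TPM is per length, so these levels can be set against each other. Over the 15 libraries, TSO1 was at or above 76.6% of the tested genes in mean level and DEL1 at or above 30.1%. In Col-0 the repressor E2FC thus had the highest transcript level of the typical E2Fs. Of the atypical members, DEL2 lay above E2FA and E2FB, DEL3 lay between them, and DEL1 had the lowest mean.

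**Figure D2:**
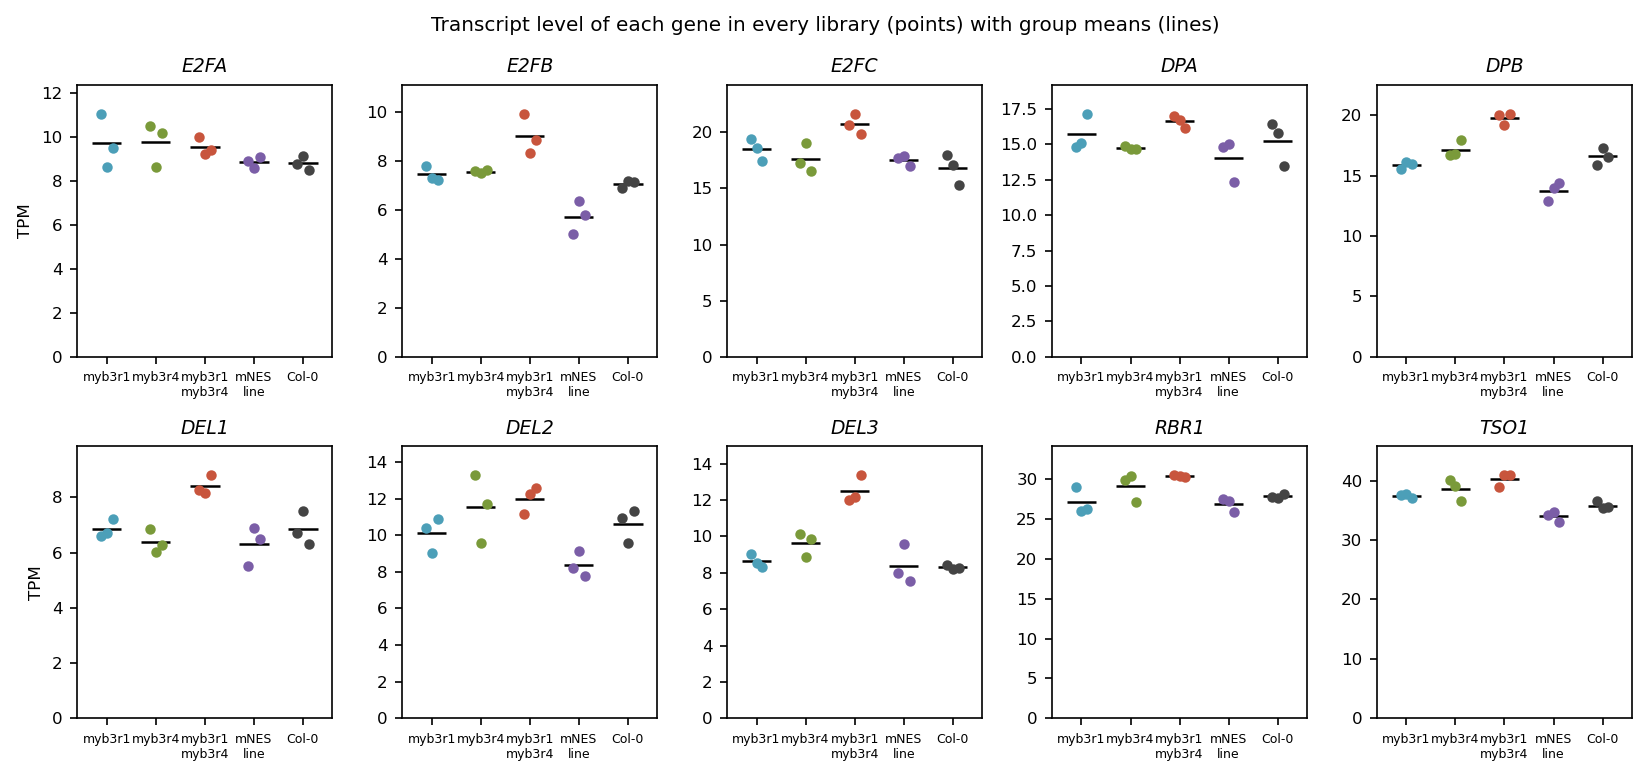
TPM of the 10 genes in each library, 1 panel per gene and 1 point per library, with group means, for myb3r1, myb3r4, the double mutant, the mNES line and Col-0. DEL3 at 11.99 to 13.4 TPM and DPB at 19.2 to 20.1 TPM in the double mutant stand clear of all other libraries. The double-mutant libraries are also above all others for E2FB, E2FC and DEL1.

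The activator E2FB (chromosome 5, 7360535 to 7364505, plus strand, 14 exons) was higher in the double mutant and lower in the mNES line than in Col-0. It measured 7.81, 7.31 and 7.24 TPM in myb3r1, 7.59, 7.50 and 7.61 TPM in myb3r4, 9.93, 8.31 and 8.86 TPM in the double mutant and 4.997, 6.37 and 5.78 TPM in the mNES line, against 6.90, 7.17 and 7.13 TPM in Col-0. Every double-mutant library was above every Col-0 library and every mNES library was below them. The log2 fold change was 0.33 ± 0.082 (SE, limma, adjusted p = 0.00556) in the double mutant and -0.29 ± 0.082 (adjusted p = 0.0271) in the mNES line against Col-0. The fall in the mNES line no longer passed when 1 library was left out in 5 of 6 cases, namely each Col-0 library (adjusted p = 0.0524, 0.0723 and 0.0757 without replicates 1, 2 and 3) and mNES replicates 1 (0.103) and 3 (0.0502), nor with only the compared groups in the fit (0.103). The mNES libraries were thus low as a group, with replicate 1 lowest.

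E2FA (chromosome 2, 15119516 to 15123184, plus strand, 13 exons), the other activator, showed no difference between groups that passed. It measured 11.1, 8.65 and 9.48 TPM in myb3r1, 10.5, 8.63 and 10.2 TPM in myb3r4, 9.99, 9.21 and 9.39 TPM in the double mutant and 8.92, 8.58 and 9.09 TPM in the mNES line, against 8.79, 9.14 and 8.49 TPM in Col-0. The single-mutant libraries spread over more than the distance between the group means. For the double mutant against Col-0 the log2 fold change was 0.11 (95% interval -0.08 to 0.29, adjusted p = 0.341). E2FA overlaps HVA22J, on the opposite strand, by 65 bases. HVA22J averaged 1.57 TPM in the double mutant and 24.1 TPM in the mNES line, against 13.8 TPM in Col-0, and because strand is not stated, reads from the shared bases cannot be assigned.

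E2FC (chromosome 1, 17634697 to 17637809, plus strand, 13 exons), the repressor, rose in the double mutant. It measured 19.4, 18.6 and 17.4 TPM in myb3r1, 17.3, 19.1 and 16.6 TPM in myb3r4, 20.6, 21.7 and 19.8 TPM in the double mutant and 17.7, 17.9 and 17.0 TPM in the mNES line, against 18.0, 17.1 and 15.3 TPM in Col-0. All 3 double-mutant libraries were above the other 12. Against Col-0 the log2 fold change was 0.30 ± 0.067 (limma, adjusted p = 0.00313) in the double mutant and 0.06 (adjusted p = 0.555) in the mNES line. The ratio of E2FC to E2FB was 2.31 ± 0.271 in the double mutant and 3.10 ± 0.391 in the mNES line, against 2.38 ± 0.229 in Col-0 (SD, n = 3 each). The ratio of E2FA to E2FB was 1.06 ± 0.0507 in the double mutant and 1.57 ± 0.219 in the mNES line, against 1.25 ± 0.0479 in Col-0. These ratios were not tested. Together the 3 typical E2Fs summed to 39.3 ± 1.25 TPM in the double mutant and 32.1 ± 0.618 TPM in the mNES line, against 32.6 ± 1.51 TPM in Col-0.

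Of the dimerisation partners, DPB (chromosome 5, 842289 to 845454, plus strand, 10 exons) rose in the double mutant and fell in the mNES line. It measured 15.6, 16.1 and 15.9 TPM in myb3r1, 16.7, 16.8 and 18.0 TPM in myb3r4, 20.0, 19.2 and 20.1 TPM in the double mutant and 12.9, 13.97 and 14.3 TPM in the mNES line, against 15.9, 17.3 and 16.6 TPM in Col-0. The double-mutant libraries were above all others and the mNES libraries below all others. The log2 fold changes were 0.25 ± 0.050 (limma, adjusted p = 0.00158) in the double mutant and -0.26 ± 0.050 (adjusted p = 0.00338) in the mNES line against Col-0. Both passed under all alternative settings and with any 1 library of the compared groups left out. No other member passed in opposite directions in both comparisons under all of these.

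DPA (chromosome 5, 542318 to 544955, minus strand, 9 to 10 exons), whose upstream stretch holds both motifs, did not pass against Col-0. It measured 14.8, 15.1 and 17.2 TPM in myb3r1, 14.9, 14.7 and 14.7 TPM in myb3r4, 17.0, 16.7 and 16.1 TPM in the double mutant and 14.8, 15.02 and 12.4 TPM in the mNES line, against 16.4, 15.8 and 13.5 TPM in Col-0. Replicate 3 was the lowest library in every group but myb3r1, where it was the highest, though by a small margin in myb3r4. The log2 fold change was 0.12 (95% interval -0.05 to 0.30, limma, adjusted p = 0.249) in the double mutant and -0.11 (-0.29 to 0.07, adjusted p = 0.390) in the mNES line. The 2 DP genes together summed to 36.4 ± 0.576 TPM in the double mutant and 27.8 ± 1.15 TPM in the mNES line, against 31.8 ± 1.58 TPM in Col-0 (SD, n = 3 each).

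DEL3 (chromosome 3, 124319 to 126876, minus strand, 11 exons), an atypical E2F, rose more than any other of the 10 in the double mutant. It measured 9.03, 8.55 and 8.32 TPM in myb3r1, 10.1, 8.88 and 9.88 TPM in myb3r4, 11.99, 12.2 and 13.4 TPM in the double mutant and 8.00, 9.61 and 7.54 TPM in the mNES line, against 8.42, 8.22 and 8.26 TPM in Col-0. The double-mutant libraries were above the other 12, and the mNES libraries lay on both sides of Col-0. Against Col-0 the log2 fold change was 0.56 ± 0.081 (limma, adjusted p = 0.000121) in the double mutant and 0.0064 ± 0.081 in the mNES line. In myb3r4 it was 0.20, with an adjusted p of 0.155 and all 3 libraries above Col-0.

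DEL1 (chromosome 3, 17783331 to 17786160, plus strand, 10 to 11 exons), which is known to delay endoreduplication by repressing CCS52A2, also rose in the double mutant. It measured 6.62, 6.73 and 7.21 TPM in myb3r1, 6.86, 6.03 and 6.28 TPM in myb3r4, 8.25, 8.14 and 8.80 TPM in the double mutant and 5.51, 6.91 and 6.49 TPM in the mNES line, against 6.69, 7.50 and 6.33 TPM in Col-0. The double-mutant libraries were again the highest of the 15. The log2 fold change was 0.28 ± 0.087 (limma, adjusted p = 0.0194), and the call was lost under median-of-ratios scaling (0.0520) and without Col-0 replicate 1 (0.0526), Col-0 replicate 3 (0.0792) or double-mutant replicate 3 (0.0716). DEL1 shares 307 bases with ALDH10A9 on the opposite strand, which averaged 60.0 TPM in the double mutant and 60.6 TPM in Col-0.

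DEL2, the remaining atypical factor, did not pass against Col-0. It measured 10.4, 9.01 and 10.9 TPM in myb3r1, 13.3, 9.57 and 11.7 TPM in myb3r4, 11.1, 12.3 and 12.6 TPM in the double mutant and 8.24, 9.12 and 7.76 TPM in the mNES line, against 10.9, 9.58 and 11.3 TPM in Col-0. Every mNES library was below every Col-0 library, with a log2 fold change of -0.32 ± 0.11 (limma, adjusted p = 0.0603). Without Col-0 replicate 2 the adjusted p was 0.0498. The 3 DEL genes summed to 32.9 ± 1.72 TPM in the double mutant and 23.1 ± 2.23 TPM in the mNES line, against 25.7 ± 0.398 TPM in Col-0 (SD, n = 3 each).

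RBR1 (chromosome 3, 3913349 to 3919359, minus strand, 18 exons) moved little. It measured 29.0, 26.0 and 26.2 TPM in myb3r1, 29.9, 30.4 and 27.0 TPM in myb3r4, 30.5, 30.3 and 30.2 TPM in the double mutant and 27.4, 27.2 and 25.9 TPM in the mNES line, against 27.7, 27.7 and 28.1 TPM in Col-0. The double-mutant libraries were above the Col-0 libraries and the mNES libraries below them. The log2 fold changes were 0.12 ± 0.050 (limma, adjusted p = 0.0664) in the double mutant and -0.05 ± 0.050 (0.526) in the mNES line, and with only the compared groups in the fit the double mutant passed (0.0303). RBR1 shares 28 bases with PRMT3 on the opposite strand.

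TSO1 (chromosome 3, 8048802 to 8052504, plus strand, 10 exons) rose by a small amount in the double mutant. It measured 37.6, 37.7 and 37.1 TPM in myb3r1, 40.1, 39.1 and 36.5 TPM in myb3r4, 38.9, 40.9 and 40.9 TPM in the double mutant and 34.2, 34.7 and 33.1 TPM in the mNES line, against 36.6, 35.3 and 35.6 TPM in Col-0. The double-mutant and mNES libraries lay on opposite sides of Col-0 without overlap. The log2 fold change was 0.17 ± 0.038 (limma, adjusted p = 0.00389) in the double mutant and -0.07 ± 0.038 (0.209) in the mNES line. In myb3r4 it was 0.10 ± 0.038 (0.123), and without myb3r4 replicate 3 the adjusted p was 0.0430. TSO1 shares 286 bases with NET1A on the opposite strand, which rose in the double mutant too, at 23.6 TPM against 19.1 TPM in Col-0, so reads from the shared bases could add to either. Reads from stretches alike in TSO1 and its CXC relative SOL1 could also be split. The ratio of TSO1 to SOL1 was 4.31 ± 0.301 in the double mutant and 3.20 ± 0.179 in the mNES line, against 3.33 ± 0.114 in Col-0 (SD, n = 3 each).

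The libraries labelled myb3r1 and myb3r4 were each compared with Col-0 for these transcripts. None of the 10 genes passed in myb3r1 against Col-0 by limma, where 6.26% of all tested genes did (3.16% higher and 3.10% lower), and none had an unadjusted p under 0.05. Their log2 fold changes ran between -0.07 (DEL2) and 0.14 (E2FC, adjusted p = 0.271), with a median of 0.05 beside 0.01 over all genes. None passed in myb3r4 either, where 7.59% of all genes did (4.55% higher and 3.04% lower), and 2 genes (DEL3 and TSO1) had an unadjusted p under 0.05. The median there was 0.08, beside 0.0034 over all genes. Library values did not overlap Col-0 for E2FB and TSO1 in myb3r1, both above it as were 14.3% of all genes, nor for E2FB and DEL3 in myb3r4, both above it as were 15.5% of all genes.

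In the double mutant against Col-0, 6 of the 10 rose, none fell and 4 did not pass, beside 41.6% of all genes called, 24.5% higher and 17.1% lower. The 6 were 1 activator (E2FB), the repressor E2FC, DPB, DEL1, DEL3 and TSO1. All 10 log2 fold changes were above 0, with a median of 0.21 beside 0.05 over all genes. Values of 8 genes, all but DPA and DEL2, were above Col-0 without overlap, beside 31.8% of all genes. With median-of-ratios scaling 5 members were higher and none lower, while over all genes it gave 3795 higher and 4587 lower in place of 5321 and 3716. All 4 comparisons with Col-0 share the same 3 control libraries. DPA and RBR1, the genes with a match to the searched E2F word upstream, did not pass in this comparison (limma, adjusted p = 0.249 and 0.0664). The 6 that rose had no match to that word in the 250 bases searched. Only 2.8% of all protein-coding genes have one there, so its absence is the usual case and sets these 6 apart from no others. Other forms of the site were not searched, and a link between sites and calls was not tested.

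**Figure D3:**
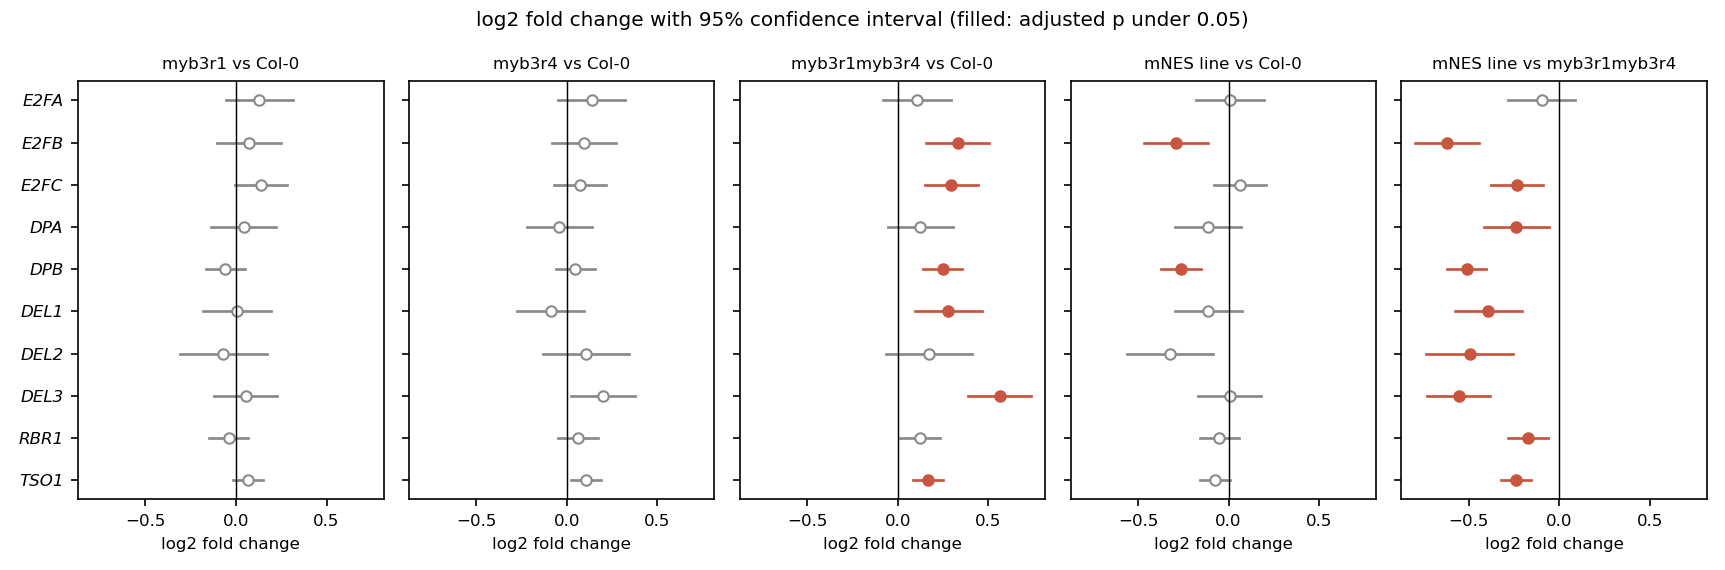
Log2 fold changes of the 10 genes with 95% intervals for myb3r1, myb3r4, the double mutant and the mNES line against Col-0 and for the mNES line against the double mutant. Filled points passed an adjusted p of 0.05 in limma: 0, 0, 6, 2 and 9 genes in these 5 comparisons.

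Set against each single mutant, the double mutant was higher for 5 of the 10 genes in both cases. Against myb3r1 these were DEL3 (log2 fold change 0.51, limma, adjusted p = 0.000489), DPB (0.31, 0.000592), DEL1 (0.28, 0.0283), E2FB (0.26, 0.0285) and RBR1 (0.16, 0.0265), beside 30.1% of all genes called, 17.2% higher and 12.9% lower. Against myb3r4 they were DEL1 (0.37, 0.00532), DEL3 (0.36, 0.00421), E2FB (0.24, 0.0378), E2FC (0.23, 0.0192) and DPB (0.20, 0.00798), beside 34.7% of all genes called, 20.1% higher and 14.6% lower. DPB and DEL3 passed in both under all alternatives. The calls of E2FB, DEL1 and RBR1 against myb3r1 were lost under median-of-ratios scaling (adjusted p = 0.0588, 0.0611 and 0.0673), as was E2FB against myb3r4 (0.0801). With only the compared groups in the fit, E2FB (0.0513) and RBR1 (0.0530) against myb3r1 and E2FB against myb3r4 (0.0593) were lost, and E2FB against myb3r4 also by upper-quartile scaling (0.0507) and with no filter on low values (0.0519). E2FB was lost without double-mutant replicate 1, 3 or either of myb3r1 replicates 2 and 3 (up to 0.122), DEL1 without double-mutant replicates 1 or 3 or myb3r1 replicates 1 or 2 (up to 0.0984), and RBR1 without any of the double-mutant replicates or myb3r1 replicates 2 or 3 (up to 0.106). Against myb3r4, E2FB was lost without any myb3r4 replicate or double-mutant replicates 1 or 3 (up to 0.154), and E2FC without myb3r4 replicates 1 or 3 or double-mutant replicate 2 (up to 0.0829). E2FA stood at -0.02 against myb3r1 and -0.03 against myb3r4.

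Whether the effect of myb3r4 differed between the myb3r1 and wild-type backgrounds was tested by the interaction of the mutations. It passed for 1 of the 10 genes, DPB, at 0.26 ± 0.071 on the log2 scale (limma, adjusted p = 0.0309), beside 12.3% of all genes, 6.31% with a positive and 5.95% with a negative interaction. For DPB the log2 fold change was 0.31 for the double mutant against myb3r1 and 0.05 for myb3r4 against Col-0. DEL1 at 0.37 ± 0.12 (0.0698) and DEL3 at 0.31 ± 0.11 (0.0973) were as large or larger but did not pass, and TSO1 was at -0.0023 ± 0.054. The call for DPB was lost under both other scalings (0.0727 by median of ratios, 0.0558 by upper quartile) and on leaving out any of 9 single libraries, with adjusted p-values between 0.0504 and 0.0716.

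In the mNES line against Col-0, 2 of the 10 genes, E2FB and DPB, fell and none rose, beside 17.0% of all genes called, 9.39% lower and 7.60% higher. The median was -0.09, beside -0.03 over all genes. Values of 5 genes (E2FB, DPB, DEL2, RBR1 and TSO1) lay below Col-0 without overlap, beside 20.0% of all genes. Median-of-ratios scaling gave 2171 higher and 1499 lower genes in place of 1653 and 2042, and the calls of E2FB and DPB both passed under it.

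Against the double mutant, 9 of the 10 genes fell in the mNES line and none rose, beside 54.5% of all genes called, 34.1% lower and 20.4% higher. The log2 fold changes were -0.62 for E2FB (limma, adjusted p = 3.08e-05), -0.56 for DEL3 (7.37e-05), -0.51 for DPB (2.65e-06), -0.50 for DEL2 (0.00189), -0.39 for DEL1 (0.00181), -0.24 for TSO1 (0.000161), -0.24 for DPA (0.0268), -0.23 for E2FC (0.00977) and -0.17 for RBR1 (0.00987). E2FA, at -0.10 (0.355), did not pass. All 10 genes lay lower in the mNES line without overlap, beside 38.3% of all genes, and the median was -0.32, beside -0.08 over all genes. Median-of-ratios scaling, which gave 5829 higher and 5085 lower genes in place of 4436 and 7404, left 6 members lower and lost E2FC (0.0708), DPA (0.121) and RBR1 (0.121). DPA was also lost by upper-quartile scaling (0.0572) and without double-mutant replicates 1 (0.0734) or 2 (0.0615) or mNES replicate 3 (0.127). This comparison shares the double mutant and mNES libraries with the comparisons to Col-0, so it is not independent of them. Over all 5 groups, the F test passed for 8 of the 10 genes, beside 55.9% of all genes. The exceptions were E2FA (adjusted p = 0.414) and DPA (0.158). The F call of RBR1 (0.0383) was lost under both other scalings, with no variance trend and in 11 of 15 cases of leaving out 1 library. The F calls of E2FC without double-mutant replicates 1 (0.0504) or 2 (0.0712), of DEL1 without double-mutant replicate 3 (0.0556) and of DEL2 without mNES replicate 3 (0.0534) were lost too.

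Genes that E2Fs are known to activate, and others used in S phase, rose for the most part in myb3r1myb3r4. Of 26 tested genes on this list, 20 rose, none fell and 6 did not pass against Col-0, beside 24.5% of all genes higher and 17.1% lower, with a median of 0.32 beside 0.05 over all genes. CDKB1;1, a B-type cyclin-dependent kinase and known E2F target, averaged 47.9 TPM in the double mutant and 29.6 TPM in Col-0 (log2 fold change 0.68, limma, adjusted p = 1.19e-06). CDC45, which loads with the replicative helicase, stood at 0.50 (0.000304) and the helicase subunit MCM6 at 0.48 (1.02e-05). CCS52A2, the target that DEL1 is known to repress, was at 0.08 (0.342). Under median-of-ratios scaling 18 rose and none fell. In myb3r1 only CDT1A (0.16) and TSO2 (0.22) of the 26 rose, beside 3.16% of all genes, and in myb3r4 only FBL17 (0.16), beside 4.55%. In the mNES line ORC6 (0.31) rose and CCS52A2 (-0.28) fell, and 24 did not pass, beside 7.60% of all genes higher and 9.39% lower. These 5 genes were named after their values were seen, and the list, like those below, was chosen with earlier results of these data known. Against the double mutant, 22 of the 26 fell in the mNES line and none rose, beside 34.1% of all genes lower and 20.4% higher. The interaction passed as positive for 4 of the 26, beside 6.31% of all genes.

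Among 13 partners from DREAM-type complexes and CXC relatives of TSO1, 7 rose in the double mutant, none fell and 6 did not pass, beside 24.5% of all genes higher and 17.1% lower. The 7 were MYB3R4 (0.59, limma, adjusted p = 1.77e-05), SOL2 (0.44, 7.51e-06), MYB3R5 (0.42, 0.00607), TCX6 (0.40, 0.0297), MSI1 (0.29, 8.99e-05), MYB3R3 (0.29, 0.0122) and ALY2 (0.20, 0.00668). By the label, MYB3R4 is itself mutated in these libraries. MYB3R3 and MYB3R5 are known as repressor-type MYB3R proteins, and MSI1 as a WD40 protein that binds RBR1. SOL1 stood at -0.19 (0.0503), and ALY1, ALY3, TCX5, TCX7 and MYB3R1 did not pass either. Under median-of-ratios scaling 6 rose and 2 fell. In the mNES line MYB3R4, with its transgene reads, was at 2.39, SOL2 fell (-0.25, 0.00181) and 11 did not pass. The MYB3R4 value includes transgene reads, so it shows no change of the native gene. With it counted, the 2 of 13 called are near the 17.0% called over all genes. In myb3r1 MYB3R1, itself mutated by the label, rose (0.39, limma, adjusted p = 0.000421) and 12 did not pass, beside 6.26% of all genes called. In myb3r4 SOL2 rose (0.17, 0.0302) and 12 did not pass, beside 7.59% of all genes called.

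A list of 13 D-type cyclin, CDKA;1 and SKP2 genes held the kinases known to act on RBR1 and the F-box proteins known or related to those that act on E2FC and DPB. In the double mutant 6 D-type cyclins rose, CYCD7;1 fell and 6 genes did not pass, beside 24.5% of all genes higher and 17.1% lower. CYCD4;2 (0.55, limma, adjusted p = 0.00133), CYCD3;3 (0.55, 1.21e-05) and CYCD4;1 (0.43, 0.000981) rose most, followed by CYCD3;1 (0.39), CYCD1;1 (0.18) and CYCD3;2 (0.11). CYCD7;1 averaged 0.215 TPM in the double mutant and 3.19 TPM in Col-0 (-2.36, 5.52e-06). Pollen, green tissue and xylem markers fell there too, and a link to CYCD7;1 was not tested. The kinase CDKA;1 was at 0.11 (0.0568). SKP2A, an F-box protein known to target E2FC and DPB, was at -0.02 (0.876), and its relative SKP2B at 0.12 (0.135). In the mNES line CYCD7;1 rose (1.04), while CYCD1;1 (-0.13), CYCD3;1 (-0.28), CYCD3;2 (-0.12), CYCD3;3 (-0.24) and SKP2B (-0.39) fell, beside 7.60% of all genes higher and 9.39% lower. Scaling by median of ratios gave 3 falls in place of 5. In myb3r1, CYCD3;1 (0.25) and CYCD3;3 (0.24) rose and CYCD7;1 (-1.47) and SKP2B (-0.30) fell, beside 6.26% of all genes called. In myb3r4, CYCD3;1 (0.16) and CDKA;1 (0.16) rose and CYCD7;1 (-1.23) fell, beside 7.59% of all genes called.

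**Figure D4:**
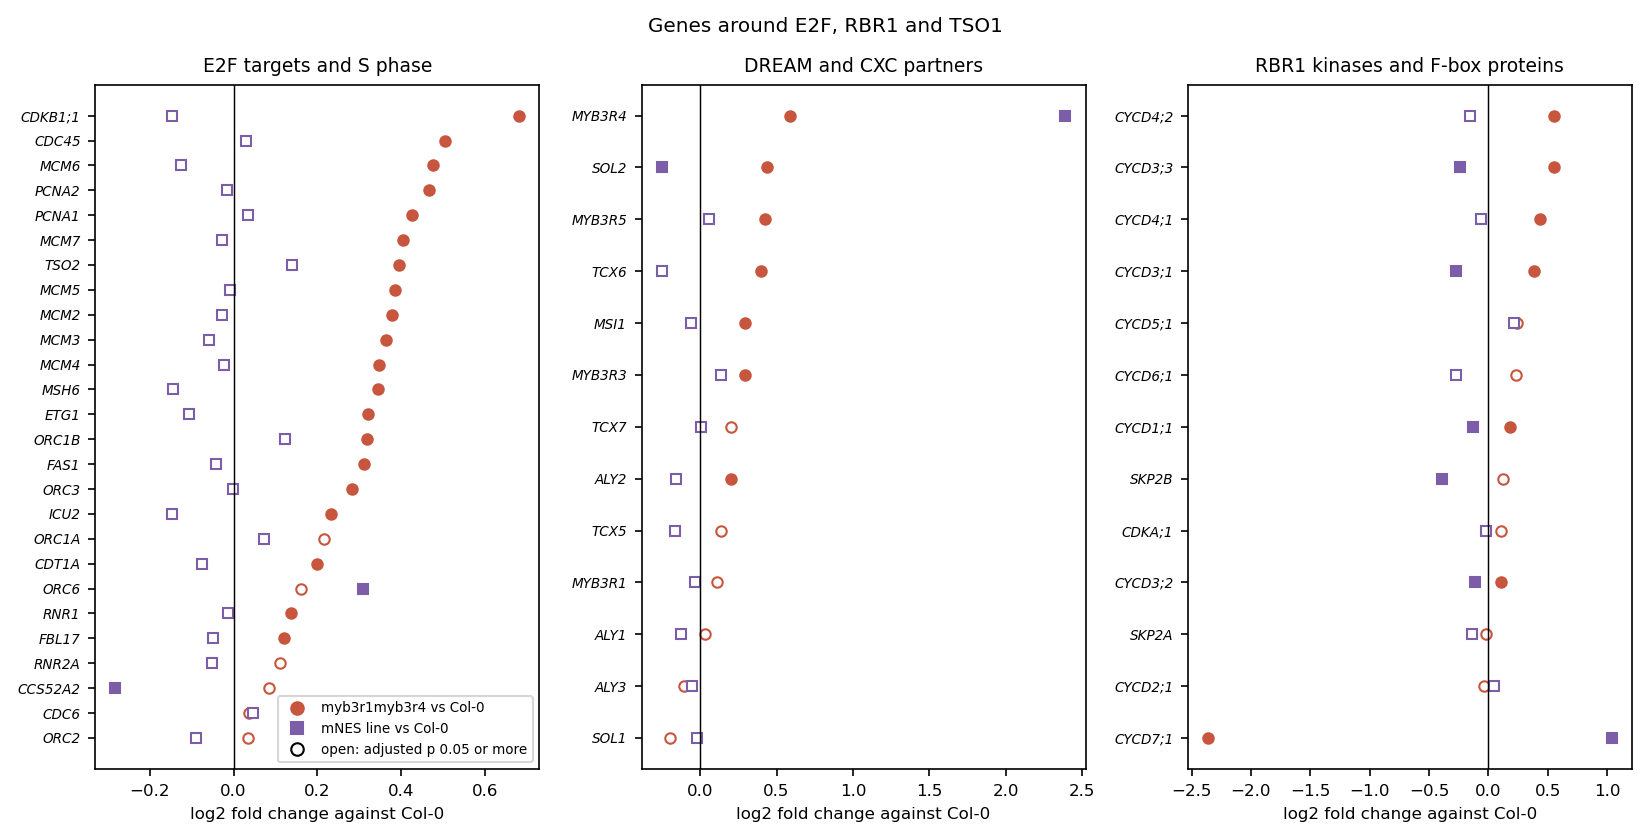
Log2 fold changes against Col-0 of the genes of the 3 lists (E2F targets and S phase, DREAM and CXC partners, RBR1 kinases and F-box proteins) in the double mutant (circles) and the mNES line (squares), open where the adjusted p in limma did not pass 0.05. In the double mutant 20 of 26, 7 of 13 and 6 of 13 genes rose and 0, 0 and 1 fell, beside 24.5% of all genes higher and 17.1% lower. In the mNES line 1 gene rose in each list and 1, 1 and 5 fell, beside 7.60% higher and 9.39% lower. The gene that rose in the DREAM list is MYB3R4, whose value includes transgene reads.

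For each of the 10 genes, the 2 genes with the most similar pattern were sought among 16528 genes averaging at least 5 TPM, by Pearson's r of log2 levels over the 15 libraries. The libraries of a group share their genotype, so these r values describe the pattern over groups. The closest gene to TSO1 was AT3G21100 (r = 0.982), followed by ABF2 (0.960). DPB was closest to AT3G03130 (0.966) and AT5G60930 (0.961), E2FB to ROPGEF1 (0.966) and AT4G33940 (0.959), DEL3 to AT4G16150 (0.958) and AT5G56670 (0.956), and RBR1 to CKL2 (0.958) and CRK3 (0.918). DEL1 was closest to AT5G41120 (0.953) and AT1G28695 (0.926), DEL2 to AT1G33680 (0.927) and AT3G06480 (0.917), and E2FC to MKK2 (0.925) and AT3G56510 (0.910). The 2 members that did not pass the F test had the lowest values, with ICE1 (0.849) and AT5G20600 (0.846) for DPA and ADNT1 (0.828) and AT1G04910 (0.795) for E2FA. No member was among the genes ranked.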

How the data were processed

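The deposited values were TPM per gene and library, made by the authors. Salmon, FastQC and the build TAIR10 are named, with no versions, per the submitters' processing notes. How transcripts were summed to genes is not given in the sources used here. Reads were from poly(A)-selected RNA primed with random hexamers, per the labels' protocols, with no statement of strand. TPM keeps no read totals, so depth and counting error are unknown.

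Limma 3.58.1 in R 4.3.3 was fitted to log2(TPM + 0.5) of 21737 genes with at least 1 TPM in at least 3 libraries. The fit held 5 group means over 15 libraries (10 residual degrees of freedom, prior 3.18, variance trend), with two-sided tests and Benjamini-Hochberg adjustment over all tested genes in each contrast at 0.05. Adding 0.5 makes fold changes of low genes smaller. Fold changes are given with the standard error (SE). The fit was also run on simulated data. Its outcome is not given here, so it adds no weight to the calls. Of the 33326 genes, 4636 were at 0 in every library.

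The 10 genes and the lists were chosen with earlier results of these data known. Named by rule were all 10 genes, up to 3 genes per list with the largest change that passed in each direction in the double mutant against Col-0, the DREAM partners, the kinases and F-box proteins, and the 2 closest patterns. Alternatives were other pseudocounts, filters and scalings, no variance trend, a replicate block, only the compared groups, and leaving out each library. Replicate numbers equal an unexplained shift experiment number and were not treated as pairs. Coordinates and upstream sequence came from TAIR10.1, in which gene starts can differ from the transcripts the authors quantified. The upstream sequence and position of 1 of the 10 genes are not reported here.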

Additional observations from a re-analysis of the deposited data

Results flagged for a closer look

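The interaction of myb3r1 and myb3r4 passed for DPB, the dimerisation partner of E2Fs, with a log2 difference of 0.26 ± 0.071 (SE) and an adjusted p of 0.0309 by limma. It was noted because a test of the difference between backgrounds itself passed. That test passed for 1 of the 10 members, beside 12.3% of all genes. The log2 fold change was 0.31 for the double mutant against myb3r1 and 0.05 for myb3r4 against Col-0. The call was lost under both other scalings and in 9 of the 12 cases of leaving out 1 library of these groups. No single library was checked as an outlier, since each group had 3.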

How the results depend on the processing

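Over the alternatives, 1374 values of single members kept their direction and side of the threshold, 77 lost a call, 6 gained one and 23 changed sign, none of which was called. In the double mutant against Col-0, E2FB, E2FC, DPB, DEL3 and TSO1 passed under all alternatives, as did DPB in the mNES line. Median-of-ratios scaling left 2 members called for the double mutant against myb3r1 (5 as reported) and 0 for the interaction (1), and upper-quartile scaling left 0 for the interaction. Median-of-ratios scaling also put DEL1 in myb3r1 against Col-0 at -0.0042 (0.0048 as reported), and moved the median over all genes to 0.0013 (0.05) in the double mutant against Col-0 and 0.0032 (-0.08) in the mNES line against the double mutant. Its splits of all called genes were 2712 higher and 3498 lower (3743 and 2807) for the double mutant against myb3r1 and 3113 and 3945 (4365 and 3179) against myb3r4. With only the compared groups in the fit, all genes called were 858 (1650) in myb3r4 and 2290 (3695) in the mNES line against Col-0, and members called were 1 (2) in the mNES line and 3 (5) for the double mutant against myb3r1. The cause of these shifts was not tested.

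Leaving out 1 library gave 663 to 1264 genes called in myb3r1 (1360) and 831 to 1476 in myb3r4 (1650) against Col-0. Members called ran from 0 to 1 in myb3r4, 1 to 2 in the mNES line, 0 to 1 for the interaction, 2 to 4 for the double mutant against myb3r1 and 3 to 4 against myb3r4. Signs changed for DPA (-0.0399 to 0.10), DEL1 (-0.0459 to 0.0686) and DEL2 (-0.14 to 0.0067) in myb3r1, DPA (-0.12 to 0.0130) in myb3r4, E2FA (-0.0152 to 0.0346) and DEL3 (-0.0903 to 0.0751) in the mNES line, TSO1 in the interaction (-0.0405 to 0.0256), E2FA (-0.10 to 0.0695) for the double mutant against myb3r1, and E2FA (-0.11 to 0.0223) and DEL2 (-0.0545 to 0.17) against myb3r4.

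Same-numbered libraries did not deviate together. Over 30 such pairs r ran from -0.126 to 0.0885, and 4 of 15 libraries correlated best with their own number. With the replicate block, 6 members were called in the double mutant, 2 in the mNES line and none in either single mutant against Col-0, 6 against myb3r1 (E2FC gained, adjusted p = 0.0311), 4 against myb3r4 (E2FB lost, 0.0593), 9 for the mNES line against the double mutant, 1 for the interaction and 8 by the F test. All genes called under the block were 8830 in the double mutant, 3444 in the mNES line, 1158 in myb3r1 and 1396 in myb3r4 against Col-0. Depth limits none of these values in a known way, since TPM holds no counts.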
